A study of Mus musculus with 16 samples.

Results

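The Egr genes (Egr1, Egr2, Egr3 and Egr4), the Nab genes (Nab1 and Nab2) and Srf were followed through the hippocampus of 16 mice. These 7 genes were taken by name, each from the probe sets that carry exactly 1 gene symbol, with the brightest probe set standing for the gene. All 7 were measured, out of 22180 genes. The mice were C57BL/6, aged 8 to 10 weeks, and fell into 4 groups of 4. Control mice are given as wild type with a glial cre, and Astro-D2KO mice as carrying floxed D2 with the same glial cre, so both genotypes carry the recombinase. D2 is the type 2 deiodinase, the product of Dio2, which makes active thyroid hormone in astrocytes. All groups had lithium chloride at 10 mEq/kg. Then, 18 h later, mice of each genotype had either saline or pilocarpine at 65 mg/kg, a muscarinic agonist that brings on status epilepticus (SE), a state of prolonged seizure. The sources used here do not give the promoter that drives the cre or the time from pilocarpine to dissection. Since every SE mouse had pilocarpine and no saline mouse did, the drug and the seizures cannot be told apart.

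The Egr proteins are zinc finger transcription factors that bind GC-rich sites and are among the immediate early genes, which neurons switch on within minutes of strong synaptic activity without making new protein first. Srf, the serum response factor, sits on CArG boxes in the promoters of many immediate early genes and acts there with ternary complex factors such as Elk1, which the ERK kinases phosphorylate. Nab1 and Nab2 bind the Egr proteins and repress transcription from Egr sites, and Nab2 is known as an Egr target, so that the pair can close a feedback loop. In the hippocampus Egr1 is widely used as a marker of recently active neurons, and Egr3 is tied to synaptic plasticity and memory. In the periphery Egr2 is the master regulator of myelination by Schwann cells.

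Promoter windows of 300 bases, from 250 bases before to 50 after a transcript's start, were taken from RefSeq (GRCm38.p6) for 5 of the 7 genes: Egr2, Egr4, Nab1, Nab2 and Srf. The choice left out the chromosome that carries Egr1. No window of Egr1 or Egr3 was used, so their promoters were not examined. They were searched on both strands for the CArG box, for the Egr sites GCGTGGGCG and GCGGGGGCG, for the full cyclic AMP response element TGACGTCA and for its short form TGACG, which the full form contains. Sequences of 4 windows are given because they differ in the sites through which these genes could act on each other. The Srf window holds CArG boxes and an Egr site, the Egr2 window shown a CArG box, the Nab1 window Egr sites, and the Nab2 window none of the motifs. Capitals mark every match, each window runs 5′ to 3′ on the strand of its gene, and a match is a string of letters, not a measured binding site.
Srf, chr17:46556113-46556412, minus strand: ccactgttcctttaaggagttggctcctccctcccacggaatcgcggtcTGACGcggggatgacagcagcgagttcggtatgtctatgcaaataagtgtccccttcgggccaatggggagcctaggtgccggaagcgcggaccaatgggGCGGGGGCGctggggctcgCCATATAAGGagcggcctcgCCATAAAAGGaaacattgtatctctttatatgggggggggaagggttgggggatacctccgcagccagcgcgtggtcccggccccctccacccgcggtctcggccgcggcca
Egr2, chr10:67537619-67537918, plus strand: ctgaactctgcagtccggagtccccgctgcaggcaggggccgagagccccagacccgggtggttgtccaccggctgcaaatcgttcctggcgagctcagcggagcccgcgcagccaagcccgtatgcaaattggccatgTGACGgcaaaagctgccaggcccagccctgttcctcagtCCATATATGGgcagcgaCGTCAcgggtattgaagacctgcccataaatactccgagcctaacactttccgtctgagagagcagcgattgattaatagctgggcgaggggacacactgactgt
Nab1, chr1:52500399-52500698, minus strand: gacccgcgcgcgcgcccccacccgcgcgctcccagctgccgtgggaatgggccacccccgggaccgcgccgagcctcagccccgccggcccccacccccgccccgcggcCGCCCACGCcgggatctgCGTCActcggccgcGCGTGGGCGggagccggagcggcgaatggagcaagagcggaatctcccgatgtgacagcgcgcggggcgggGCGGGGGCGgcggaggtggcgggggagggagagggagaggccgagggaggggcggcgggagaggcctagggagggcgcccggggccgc
Nab2, chr10:127666654-127666953, minus strand: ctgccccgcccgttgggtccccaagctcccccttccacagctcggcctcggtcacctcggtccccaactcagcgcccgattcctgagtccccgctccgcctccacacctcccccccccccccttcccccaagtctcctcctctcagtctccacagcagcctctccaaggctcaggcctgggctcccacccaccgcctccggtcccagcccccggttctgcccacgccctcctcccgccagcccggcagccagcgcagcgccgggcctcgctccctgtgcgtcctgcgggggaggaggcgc

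In the Srf window 2 CArG boxes lay at 82 to 73 and 62 to 53 bases before the start, next to 1 GCGGGGGCG site at 101 to 93 bases. Egr2 has 5 windows, several of them overlapping, and 1 of the 5 held none of the motifs. The Egr2 window given holds a CArG box at 72 to 63 bases before its start with a TGACG match on either side. In Nab1 there were 2 matches to GCGTGGGCG, at 141 to 133 and 109 to 101 bases before the start, and 1 to GCGGGGGCG at 38 to 30 bases. Egr4 held no CArG box and no Egr site but 2 TGACG matches, at 177 to 173 and 109 to 105 bases before the start. Among all 32851 windows of the same length, 1.63% held a CArG box, 0.612% held GCGTGGGCG, 2.91% held GCGGGGGCG, 1.79% held TGACGTCA and 20.8% held TGACG. The full TGACGTCA was in none of the members' windows.

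Values are log2 levels as deposited, made with RMA. Pearson correlations between arrays across 41345 probe sets ran from 0.969 to 0.990. Dio2 was 8.14 ± 0.19 in control and 6.78 ± 0.23 in Astro-D2KO mice under saline (SD, n = 4 each, two-sided exact permutation p = 0.0286, the smallest that 4 against 4 can give). After SE, 2 arrays stood apart from their groups in Dio2. The array labelled control SE replicate 4 read 7.99, whereas replicates 1 to 3 lay between 9.11 and 9.51, and the array labelled Astro-D2KO SE replicate 1 read 8.91 against 7.03 to 7.17 in the others. The second goes against its label. Whether the labels of these 2 arrays were exchanged was not tested; an exchange would change which genotype each stands for in every comparison of genotypes after SE. Results are given with both arrays, and the SE differences of the 7 genes, the genotype comparisons and calls that end are also given without them. Markers of neurons, hippocampal principal neurons, astrocytes, microglia and endothelium had named probe sets, 5 of 6 for microglia and all for the rest, and hippocampal principal neuron markers fell with SE in 3 of 7 cases in each genotype (Neurod6, Neurod2 and Dsp, the Dsp call in Astro-D2KO mice being lost without either of 2 single arrays, adjusted p 0.0524 and 0.0573). Among all genes 13.7% fell in control and 12.6% in Astro-D2KO mice. The mean log2 level of those 7 markers ran from 8.83 to 9.14 in control saline, 8.20 to 8.60 in control SE, 8.78 to 9.10 in Astro-D2KO saline and 8.56 to 8.64 in Astro-D2KO SE arrays. Among 5 general neuron markers Rbfox3 fell in both genotypes (by 0.29 in control and 0.25 in Astro-D2KO mice) and Map2 rose in Astro-D2KO mice (0.22), while the mean of the 5 ran from 11.34 to 11.45 in control saline, 11.27 to 11.39 in control SE, 11.38 to 11.43 in Astro-D2KO saline and 11.33 to 11.37 in Astro-D2KO SE arrays. Of 6 astrocyte markers Slc1a2, a glutamate transporter, fell in control mice (by 0.26) and none passed in Astro-D2KO mice. Without the 2 arrays the calls of Rbfox3 and Slc1a2 in control mice ended (limma adjusted p = 0.0534 and 0.0808), and single arrays ended those of Rbfox3 and Map2 in Astro-D2KO mice (7 and 4 arrays). In whole tissue, fewer cells of a type and less RNA per cell cannot be told apart, and the part of these marker shifts in the results was not tested.

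SE went with higher levels of all 4 Egr genes, of Srf and of Nab1 in both genotypes, while Nab2 did not pass in either. In control mice the rises ran from 1.23-fold for Nab1 to 9.77-fold for Egr1, and in Astro-D2KO mice from 1.20-fold for Nab1 to 8.70-fold for Egr1. Thus 6 of the 7 genes rose and 0 fell in each genotype, where limma called 22.1% of all genes in control mice (8.42% higher, 13.7% lower) and 20.1% in Astro-D2KO mice (7.49% higher, 12.6% lower). The median difference of the 7 genes was 1.44 on the log2 scale in control and 1.02 in Astro-D2KO mice, beside -0.02 and -0.01 for all genes. For the same 6 genes the SE arrays did not overlap the saline arrays in either genotype, a separation upward that 8.46% of all genes showed in control and 9.54% in Astro-D2KO mice. The genes were picked with earlier results of these data known, so the counts describe them and are no independent evidence.

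**Figure D1:**
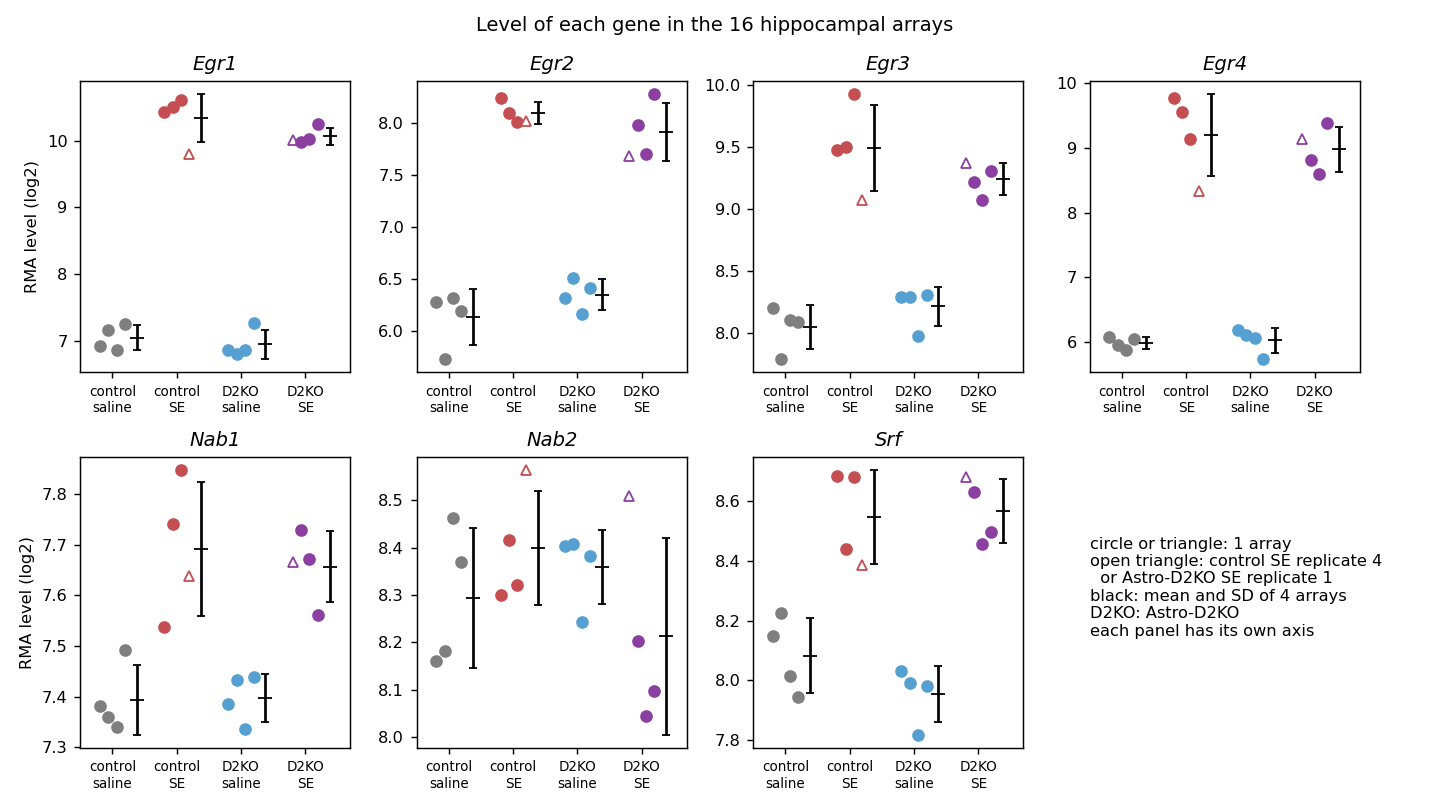
Level of each gene (log2, RMA) in each of the 16 arrays, 4 per group, with the mean and SD in black; each panel has its own vertical axis. The SE arrays lie above all saline arrays of their genotype for the Egr genes, Nab1 and Srf, and not for Nab2; open triangles mark the control SE and Astro-D2KO SE arrays with unusual Dio2 levels.

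Egr1, also known as Zif268, had the largest rise of the 7 genes with all arrays. Under saline the control arrays, replicates 1 to 4, stood at 6.91, 7.15, 6.87 and 7.25, and after SE at 10.43, 10.50, 10.61 and 9.80. Astro-D2KO arrays stood at 6.85, 6.80, 6.85 and 7.26 under saline and at 10.01, 9.97, 10.02 and 10.25 after SE. Every SE array was above every saline array by more than 2 log2 units. The lowest control SE value was that of replicate 4. With SE, Egr1 rose by 3.29 ± 0.15 in control mice (SE of the limma fit, 9.77-fold, limma adjusted p = 3.80e-10) and by 3.12 ± 0.15 in Astro-D2KO mice (8.70-fold, adjusted p = 9.10e-10). Without control SE replicate 4 and Astro-D2KO SE replicate 1 the rises were 3.47 and 3.14, the former below that of Egr4 (3.50).

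Egr4 followed, a member of the family that is expressed mostly in the nervous system. Control arrays read 6.07, 5.95, 5.87 and 6.05 under saline and 9.76, 9.55, 9.13 and 8.33 after SE. In Astro-D2KO mice the levels were 6.19, 6.11, 6.06 and 5.74 under saline and 9.14, 8.81, 8.59 and 9.38 after SE. The groups were far apart in each genotype, and the control SE arrays spread most, over 1.44 log2 units, with replicate 4 at the bottom. The rise was 3.21 ± 0.23 in control mice (9.25-fold, limma adjusted p = 4.90e-08) and 2.96 ± 0.23 in Astro-D2KO mice (7.76-fold, adjusted p = 1.48e-07). Without the control SE replicate 4 and Astro-D2KO SE replicate 1 arrays the rises were 3.50 and 2.90.

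Egr2, which encodes the Krox20 protein, rose less. Its control arrays were at 6.28, 5.73, 6.32 and 6.19 under saline and at 8.24, 8.10, 8.01 and 8.02 after SE. Its Astro-D2KO arrays were at 6.31, 6.51, 6.16 and 6.41 under saline and at 7.68, 7.98, 7.70 and 8.27 after SE. Unlike Egr1 and Egr4, Egr2 was not lowest in control SE replicate 4 but in replicate 3, with the 4 control SE arrays within 0.23 log2 units. The gene rose by 1.96 ± 0.14 in control mice (3.89-fold, limma adjusted p = 4.69e-08) and by 1.56 ± 0.14 in Astro-D2KO mice (2.95-fold, adjusted p = 5.81e-07), or by 1.98 and 1.63 without the 2 arrays of unusual Dio2. Ncmap, Pmp2 and Dhh, the 3 other Schwann cell markers measured, had 0 calls of 3 in each SE comparison, with differences from -0.09 to -0.02 in control and from 0.05 to 0.26 in Astro-D2KO mice. The mean of those 3 markers ran from 4.54 to 4.84 in control saline, 4.56 to 4.73 in control SE, 4.55 to 4.65 in Astro-D2KO saline and 4.66 to 4.98 in Astro-D2KO SE arrays.

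Egr3 had the smallest rise among the Egr genes. Saline values of the control arrays were 8.20, 7.80, 8.11 and 8.09, and their SE values 9.47, 9.50, 9.92 and 9.07. For Astro-D2KO arrays they were 8.29, 8.29, 7.98 and 8.31 under saline and 9.37, 9.21, 9.07 and 9.30 after SE. Saline and SE arrays stayed apart in both genotypes, with the narrower gap in Astro-D2KO mice. Egr3 rose by 1.44 ± 0.14 in control mice (2.72-fold, limma adjusted p = 1.69e-06) and by 1.02 ± 0.14 in Astro-D2KO mice (2.03-fold, adjusted p = 6.70e-05). Leaving out both doubted arrays gave 1.58 and 0.98.

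Srf, known as a factor upstream of Egr genes, rose modestly. Control arrays stood at 8.15, 8.22, 8.02 and 7.95 under saline and at 8.68, 8.44, 8.68 and 8.39 after SE. In Astro-D2KO arrays Srf stood at 8.03, 7.99, 7.82 and 7.98 under saline and at 8.68, 8.63, 8.46 and 8.49 after SE. No SE array fell within the saline range. The rise was 0.46 ± 0.092 in control mice (1.38-fold, limma adjusted p = 0.00140) and 0.61 ± 0.092 in Astro-D2KO mice (1.53-fold, adjusted p = 0.000159), and 0.52 and 0.57 without the doubted arrays. Srf was the only one of the 7 genes with the larger rise in Astro-D2KO mice, a difference that did not pass.

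Of the corepressors Nab1 passed with SE in both genotypes and Nab2 in neither, and the difference between them was not tested. Nab1 read 7.38, 7.36, 7.34 and 7.49 in control saline and 7.54, 7.74, 7.85 and 7.64 in control SE arrays. In Astro-D2KO arrays it read 7.39, 7.43, 7.34 and 7.44 under saline and 7.67, 7.73, 7.67 and 7.56 after SE. The groups did not overlap, although in control mice the gap between the nearest arrays was small. Nab1 rose by 0.30 ± 0.076 in control mice (1.23-fold, limma adjusted p = 0.00858) and by 0.26 ± 0.076 in Astro-D2KO mice (1.20-fold, adjusted p = 0.0218). The call in Astro-D2KO mice ended without Astro-D2KO SE replicate 2 (0.23, adjusted p = 0.0649), Astro-D2KO SE replicate 3 (0.25, 0.0513), Astro-D2KO saline replicate 1 (0.25, 0.0525) or Astro-D2KO saline replicate 3 (0.24, 0.0637). Without both doubted arrays Nab1 rose by 0.31 and 0.26 (limma adjusted p = 0.0146 and 0.0473).

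Nab2 values overlapped throughout. Control arrays were at 8.16, 8.18, 8.46 and 8.37 under saline and at 8.30, 8.42, 8.32 and 8.56 after SE. Astro-D2KO arrays were at 8.40, 8.41, 8.24 and 8.38 under saline and at 8.51, 8.20, 8.04 and 8.10 after SE. The highest Nab2 values after SE were those of control SE replicate 4 and Astro-D2KO SE replicate 1, the arrays with unusual Dio2. The difference with SE was 0.11 ± 0.10 in control mice (95% confidence interval -0.11 to 0.32, limma adjusted p = 0.530) and -0.15 ± 0.10 in Astro-D2KO mice (-0.36 to 0.07, adjusted p = 0.370), so that in both genotypes the interval ends below the rise of any Egr gene. Without both arrays the differences were 0.05 and -0.24 (adjusted p = 0.749 and 0.0700). A second, dimmer Nab2 probe set gave 0.23 ± 0.11 in control and 0.05 ± 0.11 in Astro-D2KO mice, with limma adjusted p of 0.209 and 0.836 over all probe sets. The other 6 genes had 1 probe set each.

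**Figure D2:**
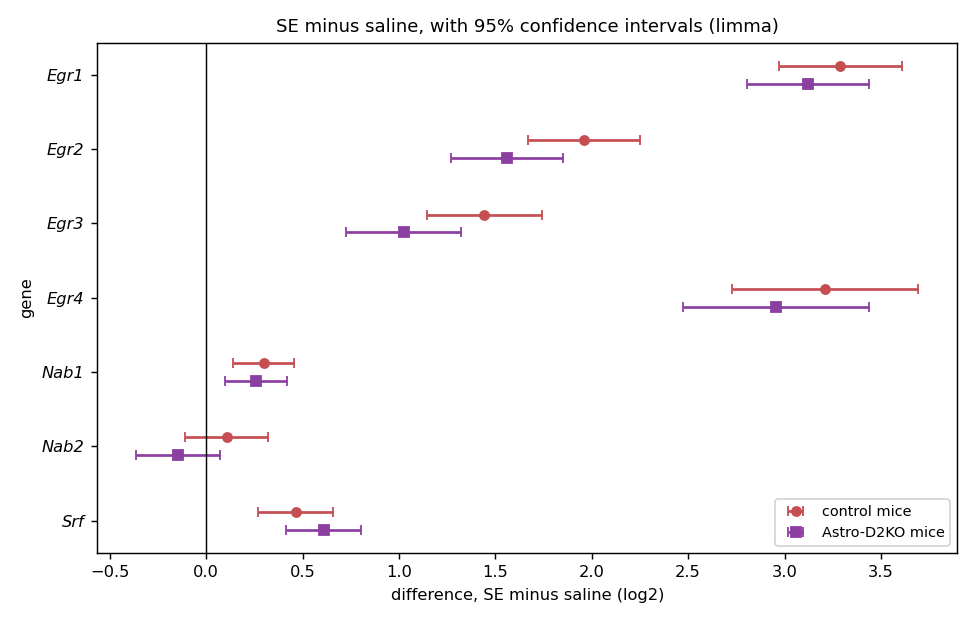
Difference between SE and saline (log2) for each gene, with the 95% confidence interval of the limma fit, in control mice (circles) and Astro-D2KO mice (squares), 4 arrays per group. Egr1 and Egr4 lie near 3, Egr2 and Egr3 between 1 and 2, Srf and Nab1 below 1, and the Nab2 intervals include 0.

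With all arrays the order of the rises was Egr1, Egr4, Egr2, Egr3, Srf, Nab1 and Nab2 in both genotypes. In control mice Egr4 came before Egr1 without control SE replicate 4 (3.50 against 3.47) and without control SE replicate 3 (3.23 against 3.20). In control mice the 95% confidence intervals of Egr1 (2.97 to 3.61) and Egr4 (2.73 to 3.69) overlapped. Egr2 (1.67 to 2.25) lay below both, and its interval just met that of Egr3 (1.14 to 1.74). Srf (0.27 to 0.66) lay below Egr3, and its interval overlapped that of Nab1 (0.14 to 0.46). The Nab1 interval in turn overlapped that of Nab2 (-0.11 to 0.32). In Astro-D2KO mice the intervals of Egr2 (1.27 to 1.85) and Egr3 (0.73 to 1.32) overlapped narrowly, as did those of Egr3 and Srf (0.42 to 0.80). The interval of Nab1 (0.10 to 0.42) met the lower end of that of Srf there and lay above that of Nab2 (-0.36 to 0.07). Whether the rises differ between genes was not tested. The rises are differences on the array scale, which can compress large changes to an extent that differs between probe sets. Among all 22180 genes the rise of Egr1 ranked 10 in control and 14 in Astro-D2KO mice, and that of Egr4 ranked 11 and 18.

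Genes with the most similar course over the 16 arrays were found by the root mean square difference of log2 levels, each gene first set to the mean of its 8 saline arrays. Egr1 was closest to Nr4a1 (0.22), Pcsk1 (0.23) and Egr4 (0.30), and Egr4 to Nr4a1 (0.29), Egr1 (0.30) and Arc (0.35). Nr4a1 encodes an orphan nuclear receptor, Pcsk1 a prohormone protease and Arc a cytoskeletal protein of synapses. All 3 rose in both genotypes, which follows from their being picked for likeness on the same arrays. Egr2 was closest to Edn1 (0.22), the gene of endothelin 1, and then to Frmd6 and Mpzl3 (0.25 each). Egr3 had Tbc1d1, Ranbp2 and Tet3 nearest (0.17 each), with Tet3 encoding an enzyme that oxidises methylated DNA. For the small movements of Srf the nearest were Cltc (0.088), the clathrin heavy chain, Gpr22 and Sdcbp (0.094 each), and for Nab1 they were Mlxip (0.078), Ctdp1 (0.080) and Taf1 (0.082). Mlxip and Ctdp1 did not pass in Astro-D2KO mice and Taf1 did not pass in control mice. Without the control SE replicate 4 and Astro-D2KO SE replicate 1 arrays, 14 of the 18 named neighbours stayed among the nearest 3.

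The comparison of genotypes asked whether loss of astrocyte D2 alters these genes. Under saline the Astro-D2KO minus control differences ran from -0.13 for Srf to 0.22 for Egr2, and after SE from -0.27 for Egr1 to 0.02 for Srf. None of the 7 genes passed in either comparison, as none of the 22180 genes did with limma (0% called in each). Dio2 itself did not pass, with differences of -1.36 under saline and -1.41 after SE (limma adjusted p = 0.999 and 0.532, exact permutation p = 0.0571 after SE). The lack of a call therefore does not show that a gene was unchanged. The groups overlapped for all 7 genes in both comparisons, where 2.61% of all genes did not overlap under saline and 2.94% after SE. At an unadjusted p under 0.05 there were 0 of the 7 genes and 885 of all genes under saline (3.99%), and 0 of the 7 and 1358 of all (6.12%) after SE. The 95% confidence intervals after SE were -0.59 to 0.05 for Egr1, -0.47 to 0.11 for Egr2, -0.55 to 0.05 for Egr3, -0.70 to 0.27 for Egr4, -0.19 to 0.13 for Nab1, -0.40 to 0.03 for Nab2 and -0.18 to 0.21 for Srf.

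**Figure D3:**
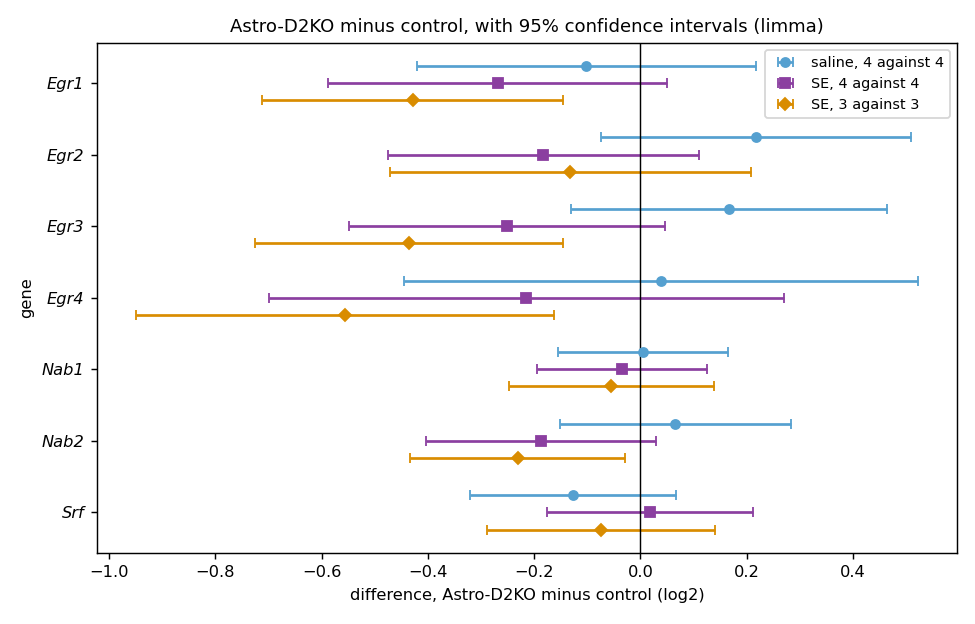
Difference between Astro-D2KO and control mice (log2) for each gene, with the 95% confidence interval of the limma fit, under saline (circles), after SE with all arrays (squares) and after SE without control SE replicate 4 and Astro-D2KO SE replicate 1 (diamonds). Intervals from all arrays include 0 for every gene; with 3 arrays a group those of Egr1, Egr3, Egr4 and Nab2 lie below 0, and none passed after adjustment.

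The SE responses of the genotypes were compared with the interaction, the log2 rise in Astro-D2KO mice less the log2 rise in controls. It was negative for Egr1 (-0.17 ± 0.21), Egr2 (-0.40 ± 0.20), Egr3 (-0.42 ± 0.20), Egr4 (-0.25 ± 0.32), Nab2 (-0.25 ± 0.15) and Nab1 (-0.04 ± 0.11) and positive for Srf (0.15 ± 0.13). Limma passed none of them and none of the 22180 genes (0% called, limma adjusted p of the 7 genes 0.998, and 1031 genes or 4.65% at an unadjusted p under 0.05, with 0 of the 7 among them). Egr3 came nearest, with an interval of -0.84 to 0.0024.

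Leaving out the control SE replicate 4 and Astro-D2KO SE replicate 1 arrays changed the sizes of these differences and no call among the 7 genes. All 7 genes were then lower in Astro-D2KO mice after SE, where the median difference of all genes was 0.01. The differences of Nab1 (-0.06), Srf (-0.07) and Egr2 (-0.13) had 95% confidence intervals that include 0. All 7 were read on the same arrays and are not 7 separate observations. Egr1 stood at 10.51 ± 0.091 in control and 10.08 ± 0.15 in Astro-D2KO mice (SD, n = 3 each), a difference of -0.43 (95% confidence interval -0.71 to -0.15, limma adjusted p = 0.229). The differences for Egr3 (-0.44, -0.73 to -0.15), Egr4 (-0.56, -0.95 to -0.16) and Nab2 (-0.23, -0.43 to -0.03) also had intervals below 0 and did not pass (adjusted p = 0.231, 0.259 and 0.372). Levels of Egr1, Egr3 and Nab2 did not overlap between the genotypes in these 3 against 3 arrays, a separation downward shown by 7.8% of all genes. At an unadjusted p under 0.05 there were 4 of the 7 genes, beside 11.3% of all genes, and limma called 5 of all genes. The interaction became -0.60 for Egr3, -0.59 for Egr4 and -0.30 for Nab2 (adjusted p = 0.664, 0.690 and 0.703). Control SE replicate 4 had the lowest control SE values of Egr1, Egr3, Egr4 and Srf and the highest of Nab2, so its removal raises or lowers those control means by construction. Likewise, Astro-D2KO SE replicate 1 had the highest Astro-D2KO SE values of Egr3, Nab2 and Srf and the lowest of Egr2. Its removal lowers or raises those Astro-D2KO means by construction. For Nab2 it read 8.51, with 8.04 to 8.20 in the other Astro-D2KO SE arrays.

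Genes around the Egr and Srf factors were described through 5 lists drawn from general knowledge. The lists were chosen with earlier results of these data known, so their counts describe them and are no independent evidence. Among all genes 8.42% rose and 13.7% fell in control mice, and 7.49% rose and 12.6% fell in Astro-D2KO mice. Of 10 immediate early genes known as Srf targets, 10 rose and 0 fell in each genotype, with a median of 2.81 in control and 2.55 in Astro-D2KO mice. Npas4, a neuronal transcription factor of activity, rose by 4.97 ± 0.39 and 4.78 ± 0.39 in control and Astro-D2KO mice, Fosb by 4.58 ± 0.17 and 4.13 ± 0.17, and Fos by 3.87 ± 0.33 and 3.76 ± 0.33, the last pair being AP-1 subunits. Control SE replicate 4 was far below the other control SE arrays in Npas4 (8.96, others 11.13 to 11.57), and without it the control rise was 5.57 (47.6-fold). Without both doubted arrays Fosb rose by 4.77 and 4.09, Fos by 4.16 and 3.76, and Npas4 by 4.91 in Astro-D2KO mice. The actin cytoskeleton genes known as Srf targets moved less. Among 16 of them 5 rose and 1 fell in control mice, and 4 rose and 0 fell in Astro-D2KO mice, with medians of 0.10 and 0.20. The largest rises were of Tpm4, a tropomyosin, at 1.40 ± 0.17 and 1.10 ± 0.17, and of Vcl, the focal adhesion protein vinculin, at 0.67 ± 0.089 and 0.62 ± 0.089. Zyx (0.57 and 0.41) and Flna (0.50 and 0.58), which encode zyxin and filamin A, rose in both genotypes, and Myl9, a myosin light chain of smooth muscle, fell by 0.36 in control mice.

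Of 16 Srf cofactors and ERK pathway kinases 11 were measured; 3 rose and 3 fell in control mice, and 2 rose and 2 fell in Astro-D2KO mice, with medians of -0.05 and -0.01. Rps6ka3, the kinase RSK2 downstream of ERK, rose by 1.20 ± 0.10 and 0.96 ± 0.10. Elk4, a ternary complex factor, rose by 0.64 ± 0.11 in control mice and was 0.26 ± 0.11 higher in Astro-D2KO mice, where it did not pass. Braf, a kinase at the head of the pathway, rose by 0.35 and 0.25, the latter call being lost without any of 3 single arrays, Astro-D2KO SE replicate 1, Astro-D2KO SE replicate 4 or Astro-D2KO saline replicate 3 (adjusted p from 0.0616 to 0.0844). Elk1 fell by 0.77 ± 0.087 in control and by 0.69 ± 0.087 in Astro-D2KO mice, and Rps6ka5, the kinase MSK1, fell by 0.48 ± 0.10 and 0.62 ± 0.10. Map2k1, an ERK kinase, fell by 0.26 in control mice, and the call was lost without control saline replicate 3 (adjusted p = 0.0520). Thus the ternary complex factors Elk1 and Elk4 moved in opposite directions in control mice.

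Genes known as Egr targets moved singly. Of 17 measured, 5 rose and 1 fell in control mice and 4 rose and 1 fell in Astro-D2KO mice, with medians of 0.26 and 0.13. Arc had by far the largest rise, 3.11 ± 0.17 and 2.56 ± 0.17 (3.26 and 2.47 without the doubted arrays), and is also on the list of Srf targets. Icam1, an adhesion molecule of endothelium and leukocytes, rose by 0.72 ± 0.11 and 0.65 ± 0.11, and Vegfa, an angiogenic factor, by 0.74 ± 0.19 and 0.55 ± 0.19, the latter with an adjusted p of 0.0484 that no longer passed without any of 11 single arrays (0.0543 to 0.175). Syn2, a synaptic vesicle protein, fell by 0.23 in control mice, a call lost without any of 6 single arrays (adjusted p from 0.0543 to 0.0981), and by 0.30 in Astro-D2KO mice. Of 6 endothelial markers Pecam1 and Flt1 rose in each genotype, while Tek (-0.33 and -0.40) and Kdr (-0.07 and -0.23) were lower without passing. The mean log2 level of the 6 overlapped between saline and SE, from 6.51 to 6.90 in control saline, 6.58 to 6.99 in control SE, 6.63 to 6.79 in Astro-D2KO saline and 6.57 to 6.9995 in Astro-D2KO SE arrays; their part in the results was not tested. The call of Pecam1 in Astro-D2KO mice was lost without any of 6 single arrays and without both doubted arrays (adjusted p = 0.0532).

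The NuRD complex removes acetyl groups from histones and remodels nucleosomes, and Nab proteins recruit it through Chd4. Of its 12 genes, 2 rose and 3 fell in each genotype, with medians of -0.11 in both. Mbd2, a reader of methylated DNA, rose by 0.49 ± 0.099 in control and 0.42 ± 0.099 in Astro-D2KO mice, and Rbbp7, a histone chaperone, by 0.49 ± 0.11 and 0.38 ± 0.11. Chd4 itself fell by 0.25 ± 0.081 in control mice and by 0.40 ± 0.081 in Astro-D2KO mice, and the deacetylase gene Hdac2 fell by 0.38 ± 0.11 and 0.42 ± 0.11. Chd3 fell by 0.30 in control mice and Hdac1 by 0.51 in Astro-D2KO mice. With the mean of its probe sets Chd3 differed by only -0.13 in control mice and did not pass (limma adjusted p = 0.329). Chd4 did not pass in control mice with array medians centred (-0.22, limma adjusted p = 0.0728). Several of these calls were lost without single arrays, namely Chd4 (5 arrays, adjusted p from 0.0618 to 0.104), Hdac2 (4, 0.0502 to 0.0781) and Chd3 (2, 0.0548 to 0.0598) in control mice, and Rbbp7 (3, 0.0554 to 0.0811) and Hdac1 (4, 0.0871 to 0.124) in Astro-D2KO mice. Without both doubted arrays the calls of Syn2 and Chd3 in control mice (adjusted p = 0.0689 and 0.0513) and of Braf, Vegfa, Rbbp7 and Hdac1 in Astro-D2KO mice (0.0536, 0.0763, 0.0791 and 0.125) ended.

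None of the genes of the 5 lists passed between the genotypes, under saline or after SE, or in the interaction. Median Astro-D2KO minus control differences after SE were -0.09 for the immediate early Srf targets, 0.02 for the actin genes, 0.00 for the cofactors and kinases, 0.01 for the Egr targets and 0.01 for the NuRD genes, beside 0.01 for all genes. Markers of microglia also moved with SE in both genotypes, 2 of 5 falling in each, beside 13.7% of all genes in control and 12.6% in Astro-D2KO mice. P2ry12, a receptor of resting microglia, fell by 1.02 in control and 1.14 in Astro-D2KO mice, Cx3cr1 fell in control mice (a call lost without any of 6 single arrays, adjusted p from 0.0613 to 0.117, and 0.0773 without both doubted arrays) and Csf1r in Astro-D2KO mice. Their mean level ran from 7.28 to 7.48 in control saline, 6.85 to 7.17 in control SE, 7.34 to 7.51 in Astro-D2KO saline and 6.82 to 7.15 in Astro-D2KO SE arrays, and their part in the results was not tested.

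**Figure D4:**
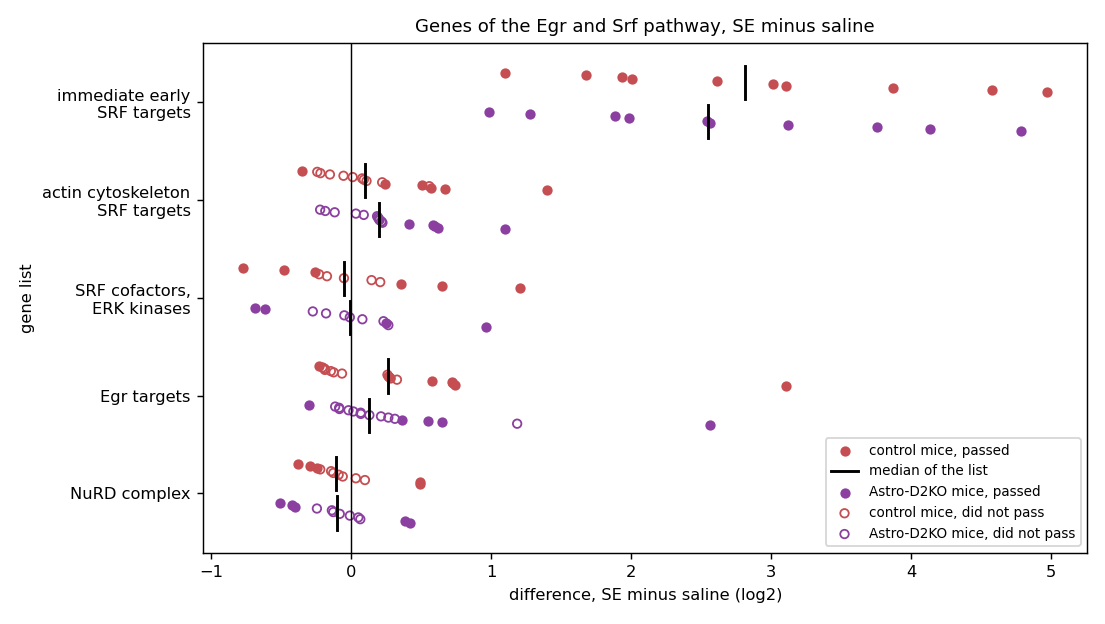
Difference between SE and saline (log2) for each measured gene of the 5 lists, in control mice and Astro-D2KO mice; filled points passed a limma adjusted p of 0.05, open points did not (6 open points of the actin genes lie close together near 0.20 in Astro-D2KO mice), and black bars are list medians. All 10 immediate early genes lie well above 0, while the other lists spread around 0 with medians between -0.11 and 0.26.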

How the data were processed

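Hippocampal total RNA of 16 mice was measured on Affymetrix arrays as biotin-labelled cDNA, per the labels' protocols. The authors summarised the probe sets by RMA, per the submitters' processing notes, and deposited values taken here as log2. They ran from 1.70 to 13.79 with array medians from 5.77 to 5.82; the base of the logarithm is inferred, not written in the table. Of 41345 probe sets, 23521 had 1 symbol, 1814 several and 16010 none; the brightest probe set stood for each of 22180 genes. Arrays have no read depth, so their number limits the precision.

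A mean for each group was fitted to all 16 arrays with limma 3.58.1 (R 4.3.3), with empirical Bayes at default settings and Benjamini-Hochberg adjustment over all genes at 0.05, two-sided. It was tested on simulated data. Alternatives covered scaling, probe sets, filter, groups in the fit, a replicate block and arrays left out. The members, lists and 2 doubted arrays were chosen with earlier results of these data known. Named were the 7 members, for each member called in both SE contrasts its 3 nearest genes, and from each pathway list up to 3 called genes in each direction by size. Cell markers named in the text follow the same rule, except that not all called ones are named. The labels number the replicates and do not say whether the numbers pair the mice.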

Additional observations from a re-analysis of the deposited data

Results flagged for a closer look

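In groups of 4, an array was singled out when its gap to the nearest other array was an unusually large part of the group's range (Dixon's test at 95%). Chance gives about 1 such group in 20; here 4 of 28 were found, all in Astro-D2KO mice. Egr1 was high in Astro-D2KO saline replicate 4 (7.26, next 6.85) and in Astro-D2KO SE replicate 4 (10.25, next 10.02). Egr3 was low in Astro-D2KO saline replicate 3 (7.98, next 8.29), as was Nab2 in the same array (8.24, next 8.38). Neither array with unusual Dio2 was among them.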

How the results depend on the processing

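Each pairwise difference of the 7 genes was refitted under 25 alternatives and each interaction under 24. In control mice 6 genes were called with SE under every one of them, and in Astro-D2KO mice 5 to 6 without single arrays, Nab1 being the gene lost. No genotype difference or interaction of the 7 genes passed under any. Among all genes, the count called between genotypes after SE was 0 with all arrays, 2 without control SE replicate 4, 1 without Astro-D2KO SE replicate 1 and 5 without both; under saline it was 1 without both or with only the 2 groups compared, and for the interaction 1 without both. The Dio2 difference under saline was -0.085 with the dimmer probe set (exact permutation p = 0.686); the cause was not tested. With the replicate block 6 of the 7 genes rose in each genotype and no call among them changed (Nab1 in Astro-D2KO mice, limma adjusted p = 0.0400). Deviations of same-numbered arrays of different groups had a median correlation of -0.03 over 24 pairs, 4 of them over 0.1. Differently numbered arrays had a median of -0.01 over 72 pairs, 19 of them over 0.1. The highest value, 0.34, was that of control saline and Astro-D2KO saline replicate 3. Pairing of the mice by number was not tested further. Of 43 calls of the pathway genes named, 34 held under every alternative run. Counts per list moved by over 1.5 times for the Egr targets (5 to 3) and the Srf cofactors and kinases (4 to 7 with quantile normalization repeated) in Astro-D2KO mice, and for NuRD genes in both genotypes (5 to 3, and to 2 with only the control groups). The number of arrays limits what could be detected.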
